A study of Mus musculus with 6 samples.

Results

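The replication-dependent histone genes are the protein-coding genes that supply the core histones H2A, H2B, H3 and H4 and the somatic linker histones H1 during S phase. They were taken from the deposited gene table by name, which gave 68 protein-coding genes of 55421 listed genes. The table mixes new and old symbols, so names such as H4c9 and names such as Hist1h2an both occur. Of the 68 genes, 5 are linker histone genes that are not tied to replication (H1f0, H1f6, H1f7, H1f8 and H1f10), and their values are given apart. The remaining 63 genes comprised 5 H1, 17 H2A, 17 H2B, 12 H3 and 12 H4 genes.

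RNA had been sequenced from germinal centre B cells, the antigen-activated B cells that divide rapidly in spleen follicles while mutating their antibody genes. All mice were C57BL/6 mice with an AID-GFP reporter, which marks cells that switch on the gene for activation-induced deaminase, and the AID-GFP+ cells were sorted on day 9 after immunisation with NP(18)OVA in alum. The 3 wildtype libraries carry the reporter alone, as far as the labels say, and the 3 SFR KO libraries came from mice with a deletion that starts in the first intron of Cd244 and reaches the eighth exon of Slamf6. It touches the SLAM family receptor genes Cd244, Ly9, Slamf7, Cd48, Slamf1, Cd84 and Slamf6. The labels do not state that each sample was a separate mouse or whether mice were pooled, so the tests reflect variation among these samples, which may be technical.

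Most messenger RNAs end in a poly(A) tail, whereas those of the replication-dependent histone genes normally end just after a short stem-loop. The stem-loop binding protein Slbp holds this structure, the U7 small nuclear ribonucleoprotein positions the cut behind it, and the messages are made in S phase and destroyed when DNA synthesis stops. Many of these genes lie in clusters, often as divergent H2A and H2B pairs, and some can also give longer, polyadenylated messages in cells that stop dividing. The molecule in the labels is total RNA, and the sources used here do not give how it was selected for the libraries (poly(A) or otherwise).

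The stem-loop was searched for in the 3′ UTR of each gene's transcripts in GENCODE M21 on GRCm38, as a 16-base pattern of paired stem arms around a loop. An annotated 3′ UTR of at least 16 bases was present for 48 of the 63 genes, and 42 of these (87.5%) held the pattern, beginning 21 to 58 bases after the stop codon (median 31). Within 100 bases of the stop codon, 8 of 21016 other coding genes (0.0381%) held it, and 5 of those 8 are themselves histone genes. The sites of 8 genes are shown because their values recur in what follows and because they carry the main forms of the stem-loop. The capitals mark the 16-base stem-loop, and 5 bases are given on each side.
H4c9: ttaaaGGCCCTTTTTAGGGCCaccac
H4c4: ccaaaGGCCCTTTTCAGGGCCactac
H1f2: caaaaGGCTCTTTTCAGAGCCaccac
H1f4: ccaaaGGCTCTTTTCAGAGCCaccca
H2ac6: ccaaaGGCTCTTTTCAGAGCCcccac
H2bc6: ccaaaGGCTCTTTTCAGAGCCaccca
H2bc9: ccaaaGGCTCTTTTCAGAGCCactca
H3c3: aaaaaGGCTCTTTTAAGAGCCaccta
The sites of H4c9 (chr13:22040961-22040986), H1f4 (chr13:23621777-23621802), H2ac6 (chr13:23683472-23683497), H2bc6 (chr13:23585526-23585551), H2bc9 (chr13:23542923-23542948) and H3c3 (chr13:23745042-23745067) lie on the minus strand. Those of H4c4 (chr13:23581945-23581970) and H1f2 (chr13:23739507-23739532) lie on the plus strand.

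The stem-loop sequences split by histone type. The form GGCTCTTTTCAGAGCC was the most frequent, in 24 genes, of which 3 were H1, 9 H2A, 7 H2B and 5 H3 genes and none was an H4 gene. H4 genes instead carried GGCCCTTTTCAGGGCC (6 genes), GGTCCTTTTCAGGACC (2 genes), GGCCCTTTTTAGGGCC (2 genes) or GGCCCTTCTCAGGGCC (1 gene). The form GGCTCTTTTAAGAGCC occurred in 2 H2B and 3 H3 genes. The pattern was not found in 6 genes with a long enough 3′ UTR, namely H1f1, H2bc4, H2bc21, Hist1h2bq, Hist1h2br and H3c13, and this says only that these letters are not in the annotated UTR.

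Depth was alike across libraries, at 28269310 to 33053024 reads assigned to genes. Slamf7, a receptor gene inside the deletion, stood at 7815, 4426 and 3923 normalized reads in wildtype and at 0, 0 and 0.937 in SFR KO libraries, which checks the labels. Ly9 had no read in SFR KO libraries and at least 2162 normalized reads in wildtype, and Slamf6 stood at 1576 or more in wildtype and between 4.38 and 14.05 in SFR KO. All 10 germinal centre B cell markers were detected, with summed levels of 242759 to 245659 normalized reads in wildtype, against 252883 to 255267 in SFR KO libraries. Markers of other cells were present too, and none of their defining genes was at 0 throughout: the 7 T cell markers summed to 341 to 702 and 701 to 856, the 6 markers of resting follicular B cells to 14150 to 18302 and 9096 to 16894, and the 6 plasma cell markers to 29586 to 30242 and 32630 to 33227. Wildtype 1 stood apart in the 6 myeloid markers, at 5020 against 816 to 2411 in the other libraries, and in the 6 red cell markers, at 7886 against 1435 to 4225. It was also the lowest library in the summed histone reads (1990) and in the H4 sum (629); without it the ratios of SFR KO to wildtype were 1.03 for both, where they were 1.05 and 1.07 with it. The part of other cells in the histone values was not tested.

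Replication-dependent histone messages made up a very small share of every library. They took 0.00648%, 0.00670% and 0.00711% of assigned reads in wildtype 1, 2 and 3, against 0.00702%, 0.00694% and 0.00737% in SFR KO 1, 2 and 3. The exact (Clopper-Pearson) 95% intervals of these shares ran from 0.00621% at the lowest to 0.00767% at the highest. The interval of SFR KO 3 began at 0.00708%, above the upper ends of wildtype 1 (0.00676%) and wildtype 2 (0.00700%). All other intervals overlapped between the groups. These intervals and the floors below cover counting error only. In all, 12931 reads over the 6 libraries fell on the 63 genes, against 44640 on the pair of replication-independent linker genes H1f0 and H1f10.

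Per length, the tested histone genes mostly lay below the median of expressed coding genes. The 31 histone genes whose mean reached 10 normalized reads had a median of 32.9 normalized reads per kb of annotated exon, beside a median of 195 per kb over the 11399 coding genes that met the same minimum. Over all 63 genes, with and without reads, the median was 18.4 per kb, held by H2bc6, and 55.7% of all 21816 coding genes, with and without reads, stood lower. Only H4c9 and H1f2 exceeded 195 per kb among the 63 genes. Reads were found for 57 genes and none for 6 (H2ac1, H2ac18, H2bc1, Hist1h2bq, Hist1h2br and H3c14), where a count of 0 allows up to 3 reads over the 6 libraries. This floor does not cover reads lost to other genes. Of the 50-base stretches of H2ac18, 89.4% also occur in another gene, and it overlaps an annotated gene on the same strand. Its count of 0 therefore does not show that it is not expressed. A mean of at least 10 normalized reads, the minimum for testing, was reached by 31 genes (5 H1, 5 H2A, 9 H2B, 5 H3 and 7 H4), a mean of 50 by 5 genes and a mean of 100 by 4.

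The median of the histone variant genes that are also expressed outside S phase lay above that of the replication-dependent genes. H2ax, the DNA damage histone, stood at 16063 normalized reads per kb, although it too carries the stem-loop pattern, 46 bases after the stop codon. H2az1, the H2A variant of promoters, stood at 7245 and H3f3b, an H3.3 gene, at 6972. The median of the 11 variants listed as replication-independent, H2ax included, was 2822 per kb. The ranges overlapped: H1f0 (774), Cenpa (673), H2aj (642) and Macroh2a2 (0.688) lay below H4c9 at 795 per kb. The machinery that makes and trims histone messages had a median of 614 per kb over 20 genes. Its members ranged from 16.9 (Zfp473) to 2264 per kb, and Lsm11 stood at 91.6. S phase genes had a median of 1094 per kb over 20 genes and histone chaperones 880 per kb over 23 genes, beside the 18.4 per kb of the histone genes. At the other end, 11 small RNAs that carry no poly(A) tail had a median of 3.07 per kb. Rmrp, Terc and Rnu7 (the RNA of the U7 particle) had no read in any library. The list was uneven, and its highest member, Rn7sk, had a mean of 79.0 normalized reads. What part library preparation has in these levels was not tested.

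**Figure D1:**
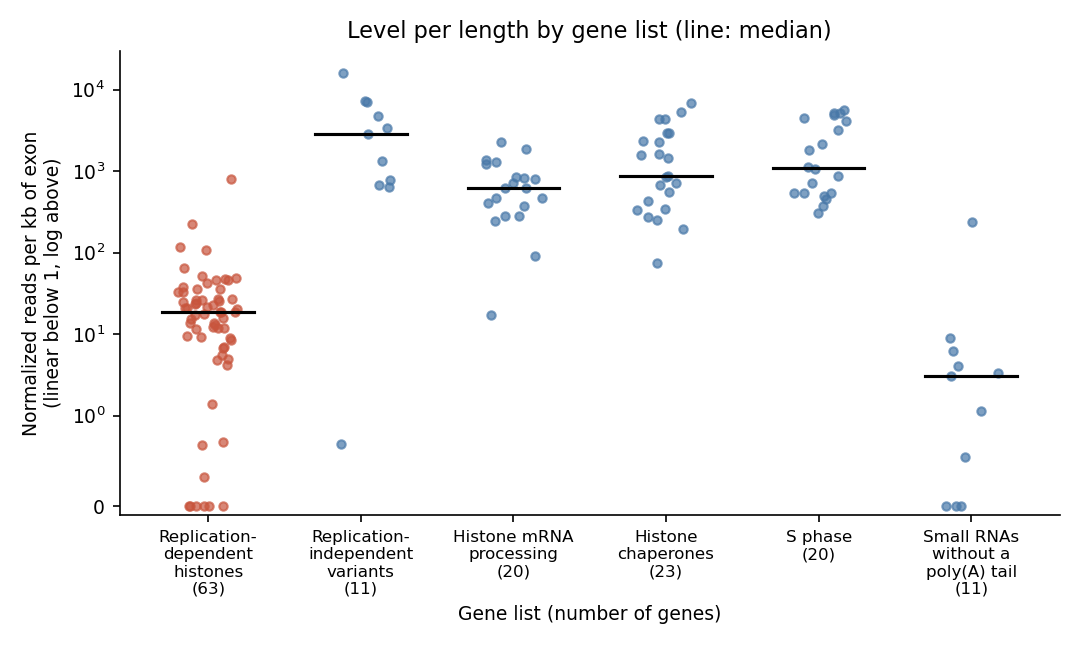
Mean normalized reads per kb of annotated exon over the 6 libraries (vertical axis, linear below 1 and logarithmic above) for the 63 replication-dependent histone genes and 5 companion gene lists. Each point is a gene and each line a median; the histone median of 18.4 lies below the medians of the variants (2822), the processing genes (614), the chaperones (880) and the S phase genes (1094) and above that of the small RNAs (3.07).

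Within the family, reads were concentrated in a few genes. H4c9, an H4 gene at chr13:22040636-22041362 on the minus strand, had the highest level at 795 normalized reads per kb, followed by the linker gene H1f2 at 222, H2bc4 at 117 and H2bc21 at 108. No other gene exceeded 100 per kb, and the next were H4c12 at 64.3 and H2ac15 at 52.1. H4c9 alone took 26.9% of the reads of the 63 genes, and these 4 genes together took 62.5%. By type, H4 took 32.9%, H2B 31.4%, H1 21.6%, H2A 7.63% and H3 6.43% of the reads, while the median gene stood at 25.0 per kb in H1, 23.9 in H2B, 19.6 in H4, 14.6 in H3 and 9.52 in H2A. The types also differ in the median share of 50-base stretches found in another gene. It was 2.25% in H1, 39.9% in H4, 49.7% in H2B, 62.0% in H3 and 78.9% in H2A. The part of shared sequence in this order was not tested.

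The genes with the most reads shared a long annotated 3′ UTR. All 9 genes with a mean above 30 normalized reads had an annotated 3′ UTR of at least 376 bases, and the 20 genes with one of 300 bases or more took 79.1% of the histone reads. A longer transcript also collects more reads, and per kb the median of these 20 genes was 17.7, beside 16.9 for the 24 genes with 37 to 114 bases, 24.3 for the 4 genes with 150 to 200 bases and 23.4 for the 15 genes with fewer than 3 bases. The highest level per kb was 795 among the 20 genes, 48.5 among the 24 genes, 37.5 among the 4 and 64.3 among the 15. These groups also differed in how much sequence they share with other genes. The median share of 50-base stretches found in another gene was 24.7% for the 20 genes and 59.9% for the 24. It was 43.7% for the 4 and 79.7% for the 15, and the part of this in the levels was not tested. The 20 genes also include Hist1h2bq, Hist1h2br and H3c14, which had no reads. These share 97.3%, 88.7% and 100% of their 50-base stretches with another gene, and H3c14 lies wholly within another annotated gene on the same strand, so a count of 0 does not show that they are not expressed.

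Several of these long messages are annotated as running past the stem-loop. Annotated transcripts extended at least 100 bases beyond it in 19 genes, which took 62.2% of the reads, and fewer than 60 bases in 22 genes. H4c9, with the site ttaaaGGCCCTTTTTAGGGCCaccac shown above, extended 330 bases beyond it, H1f2 840 and H2ac6 2010. H4c14 carries the same stem-loop core as H4c9 and is annotated 1257 bases beyond it, yet stood at 8.86 per kb. Over the 19 genes the summed normalized reads were 1226, 1297 and 1337 in wildtype, against 1349, 1387 and 1411 in SFR KO libraries, a ratio of 1.07. The groups did not overlap under the deposited scaling, TMM factors or total reads, and no test was made of the sum. Among single tested genes, 9.78% were likewise higher in SFR KO without overlap. The sum over the 19 genes includes H2ac6, the only gene among the 31 tested replication-dependent genes whose groups did not overlap. The lowest library of this sum was wildtype 1.

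**Figure D2:**
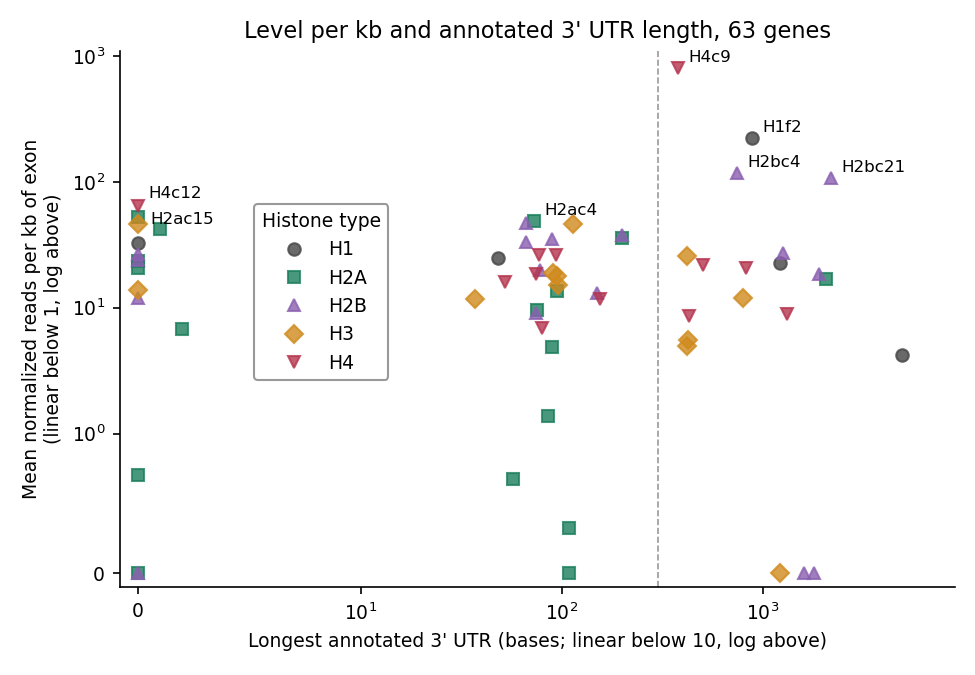
Mean normalized reads per kb of annotated exon (vertical axis, linear below 1 and logarithmic above) against the longest annotated 3′ UTR of the gene in bases (horizontal axis, linear below 10 and logarithmic above) for the 63 genes, by histone type. The dashed line marks 300 bases; the 4 genes above 100 per kb (H4c9, H1f2, H2bc4 and H2bc21) lie to its right, while the medians on either side are close.

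The comparison of SFR KO with wildtype asks whether loss of the SLAM family receptors changed histone messages. No replication-dependent histone gene passed the test: 0 of the 31 tested genes were called by limma at a Benjamini-Hochberg adjusted p under 0.05, where 0.465% of all 13562 tested genes were called (0.155% higher and 0.31% lower in SFR KO). At an unadjusted limma p under 0.05, 1 of the 31 histone genes passed, against 16.1% of all tested genes. edgeR on the recovered reads called 0 (0.221% of all genes), and DESeq2 called 0 (3.56% of all genes) while giving an adjusted p to only 5 of the 31. The median log2 difference, SFR KO minus wildtype, was 0.12 over the 31 genes, with 20 above 0 and 11 below, beside a median near 0 over all tested genes, of which 49.3% lay above 0. In bulk RNA, fewer cells making a message and less message per cell cannot be told apart.

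The sums by library lay close together. All 63 genes together gave 1990, 2090 and 2193 normalized reads in wildtype 1, 2 and 3, against 2164, 2147 and 2281 in SFR KO 1, 2 and 3, a ratio of 1.05 with overlapping groups. Without the 4 highest genes the ratio was 1.12, and the groups still overlapped. H4 was the only type whose sums did not overlap, with a lowest SFR KO library at 720.3 and a highest wildtype library at 719. This held when libraries were scaled to TMM factors or to total reads, and no test was made of the sum. Among single tested genes, 9.78% were higher in SFR KO without overlap, and 21.7% did not overlap in either direction. Small nuclear RNAs, whose libraries did not overlap either, summed to 172 to 185 normalized reads in wildtype, against 229 to 290.3 in SFR KO, and small nucleolar RNAs to 476 to 497 and 553 to 677; their part in the histone values was not tested.

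**Figure D3:**
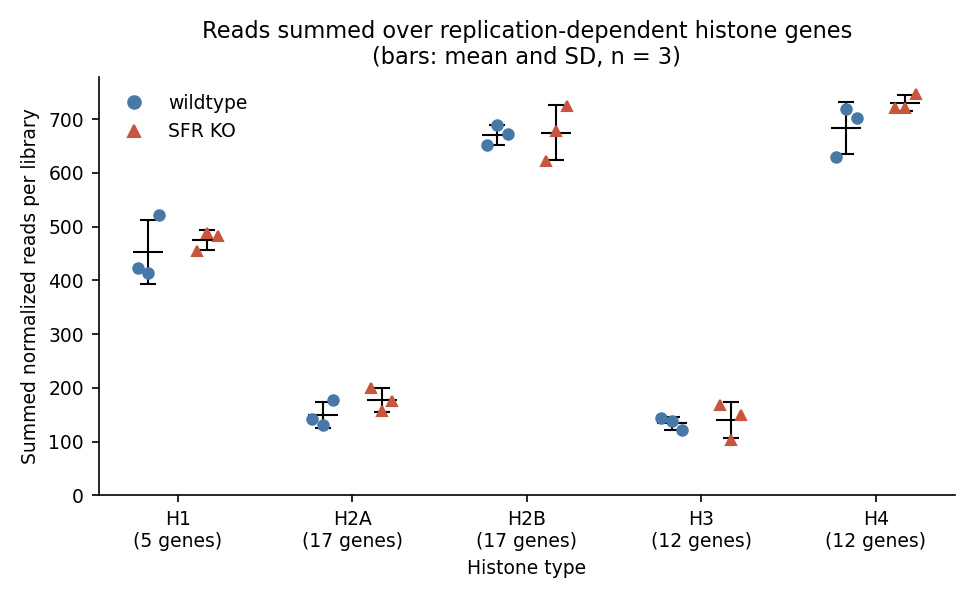
Normalized reads summed over the replication-dependent genes of each histone type (vertical axis, starting at 0) in the 3 wildtype libraries (circles) and the 3 SFR KO libraries (triangles), with mean and SD. The points of the groups overlap in H1, H2A, H2B and H3, and in H4 the highest wildtype sum (719) lies just under the lowest SFR KO sum (720.3).

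Linker histones H1 bind the DNA entering and leaving the nucleosome. The 5 H1 genes summed to 424, 414 and 521 normalized reads in wildtype, against 454, 488 and 483 in SFR KO libraries, or 453 ± 59.1 and 475 ± 18.4 (mean ± SD, n = 3 each). H1f2 held most of these reads, at 352, 330.3 and 345 in wildtype, against 315, 391 and 341 in SFR KO. The SFR KO values spanned the wildtype values, and the fitted log2 difference was 0.02 ± 0.11 (SE; limma adjusted p = 0.946). Its 95% interval ran from -0.23 to 0.27.

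The other H1 genes varied widely between libraries of 1 group. H1f4 ranged from 26.0 to 70.1 normalized reads in wildtype and from 30.7 to 59.0 in SFR KO libraries. H1f3 stood at 15.8, 19.5 and 46.7 in wildtype and at 41.4, 33.9 and 30.9 in SFR KO, a log2 difference of 0.51 ± 0.41 (limma adjusted p = 0.590), with wildtype 3 above every SFR KO library. H1f5 stood at 21.4, 10.3 and 32.5 against 30.5, 17.5 and 34.7, again with overlap. The fitted differences of all 5 H1 genes lay above 0, with a median of 0.13, and none passed the test. H1f4 and H2bc6 share 496 bases of annotated exon on the same strand, so their reads may be hard to separate.

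H2A and H2B form the outer dimers of the nucleosome, and H2A had the lowest median level per kb of the 5 types. The 17 H2A genes summed to 141, 130.3 and 177 normalized reads in wildtype, against 200.03, 157 and 176 in SFR KO libraries, a ratio of 1.19 with overlap. H2ac6, on chr13:23681467-23683948 of the minus strand, was the H2A gene with the most reads. It stood at 33.4, 26.7 and 31.5 normalized reads in wildtype and at 54.2, 58.0 and 48.7 in SFR KO libraries. Every SFR KO library lay above every wildtype library, which none of the other 30 tested replication-dependent genes showed and which 9.78% of all tested genes showed in this direction (21.7% in either direction).

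The size of the H2ac6 difference was 0.80 ± 0.24 on the log2 scale, with a 95% interval from 0.26 to 1.34. Its unadjusted limma p was 0.00862 and its adjusted p = 0.161, so it did not pass the test. With single libraries left out the difference ranged from 0.70 to 0.86, and over all alternatives run the adjusted p (limma or edgeR) ranged from 0.155 to 0.407. The authors' deposited table gave it a log2 fold change of 0.81 and an unadjusted p of 0.0312, with no adjusted p. The gene rests on 253 reads over the 6 libraries, and it overlaps a small gene model on each strand by up to 138 bases.

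The remaining H2A genes showed overlapping groups. H2ac8 stood at 21.4, 23.6 and 26.4 normalized reads in wildtype and at 23.6, 21.9 and 33.7 in SFR KO libraries. H2ac4 ranged from 7.18 to 27.9 and from 15.9 to 39.4, and H2ac15 from 17.4 to 31.5 and from 15.3 to 22.5. The fitted log2 differences of these genes were 0.13 ± 0.31, 0.48 ± 0.54 and -0.33 ± 0.36, with limma adjusted p of 0.887, 0.716 and 0.704. H2A copies resemble each other closely, and 78.9% of the 50-base stretches of the median H2A gene also occur in another gene, so reads may be split or lost between copies.

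H2B held 3 of the 5 genes whose mean reached 50 normalized reads. The 17 H2B genes summed to 652, 689 and 671 in wildtype, against 622, 678 and 725 in SFR KO libraries, a ratio of 1.01. H2bc21, on chromosome 3, stood at 289, 264 and 303 in wildtype and at 250.3, 284 and 304 in SFR KO. The SFR KO range enclosed the wildtype range, with a log2 difference of -0.03 ± 0.12 (limma adjusted p = 0.930). H2bc4 stood at 127, 164 and 130.01 in wildtype and at 132, 126 and 133 in SFR KO, where wildtype 2 alone stood apart, and its log2 difference was -0.10 ± 0.16 (limma adjusted p = 0.815).

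H2bc6 and H2bc9 were the next H2B genes. H2bc6 stood at 81.8, 88.2 and 65.0 normalized reads in wildtype and at 70.9, 85.4 and 100.2 in SFR KO libraries, a log2 difference of 0.12 ± 0.21 (limma adjusted p = 0.832). H2bc9 ranged from 34.5 to 52.0 in wildtype and from 41.2 to 49.3 in SFR KO, at 0.08 ± 0.25. H2bc8, the H2B gene with the lowest p, stood at 13.01, 19.5 and 30.5 against 24.6, 26.3 and 25.3, with the SFR KO values inside the wildtype range (0.34 ± 0.36, limma adjusted p = 0.700).

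H3 and H4 form the inner tetramer of the nucleosome and carry most of the modified histone tails. H3 was the type with the fewest reads: its 12 genes summed to 144, 137 and 121 normalized reads in wildtype, against 168, 103 and 149.9 in SFR KO libraries, a ratio of 1.04. H3c3, with the most reads, stood at 27.9, 35.9 and 27.4 in wildtype and at 31.5, 23.0 and 29.97 in SFR KO (log2 difference -0.11 ± 0.29, limma adjusted p = 0.897). H3c6 stood at 19.5, 30.8 and 23.4 in wildtype and at 33.5, 4.38 and 17.8 in SFR KO. Its low value came from SFR KO 2, and its highest value was also an SFR KO library. Its limma log2 difference of -0.73 ± 0.61 was the lowest of the 31 genes (limma adjusted p = 0.614), while edgeR gave -0.38 and DESeq2 -0.39. H3c4 (-0.45 ± 0.38) and H3c11 (0.27 ± 0.38) overlapped between groups as well.

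H4c9 held most of the reads of the H4 type. It stood at 517, 612 and 569 normalized reads in wildtype and at 586, 586 and 599 in SFR KO libraries, or 566 ± 48.0 and 590.5 ± 7.74 (mean ± SD, n = 3 each). The SFR KO values lay inside the wildtype range, and the log2 difference was 0.06 ± 0.09 with a 95% interval from -0.13 to 0.26 (limma adjusted p = 0.773). This was the most precise estimate of the 31 genes, resting on 3483 reads, whereas the median tested gene rested on 139 reads and had a 95% interval 1.73 log2 units wide.

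The H4 sum of 12 genes was 629, 719 and 703 normalized reads in wildtype, against 720.3, 721 and 746 in SFR KO libraries, a ratio of 1.07. H4c4, the H4 gene with the lowest p, stood at 13.01, 20.5 and 23.4 in wildtype and at 19.7, 30.7 and 34.7 in SFR KO, with overlap (0.56 ± 0.36, limma adjusted p = 0.492). H4c12 ranged from 17.7 to 25.4 and from 15.3 to 20.7 (-0.29 ± 0.33), and H4c3 from 5.13 to 25.1 and from 16.8 to 19.7 (0.29 ± 0.55). Groups overlapped in each of these genes.

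**Figure D4:**
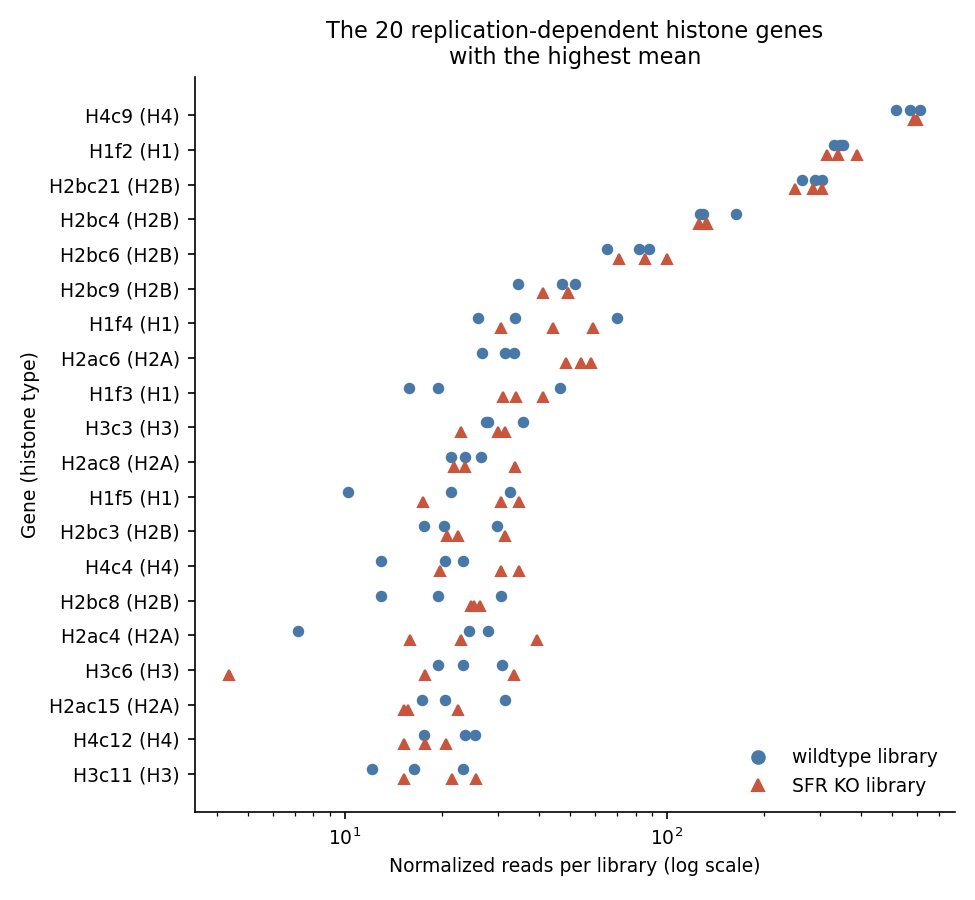
Normalized reads in each library (horizontal axis, logarithmic) for the 20 replication-dependent histone genes with the highest mean, by gene and histone type, with wildtype libraries as circles and SFR KO libraries as triangles. H2ac6 is the only gene shown whose groups do not overlap, at 26.7 to 33.4 in wildtype, against 48.7 to 58.0 in SFR KO.

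**Figure D5:**
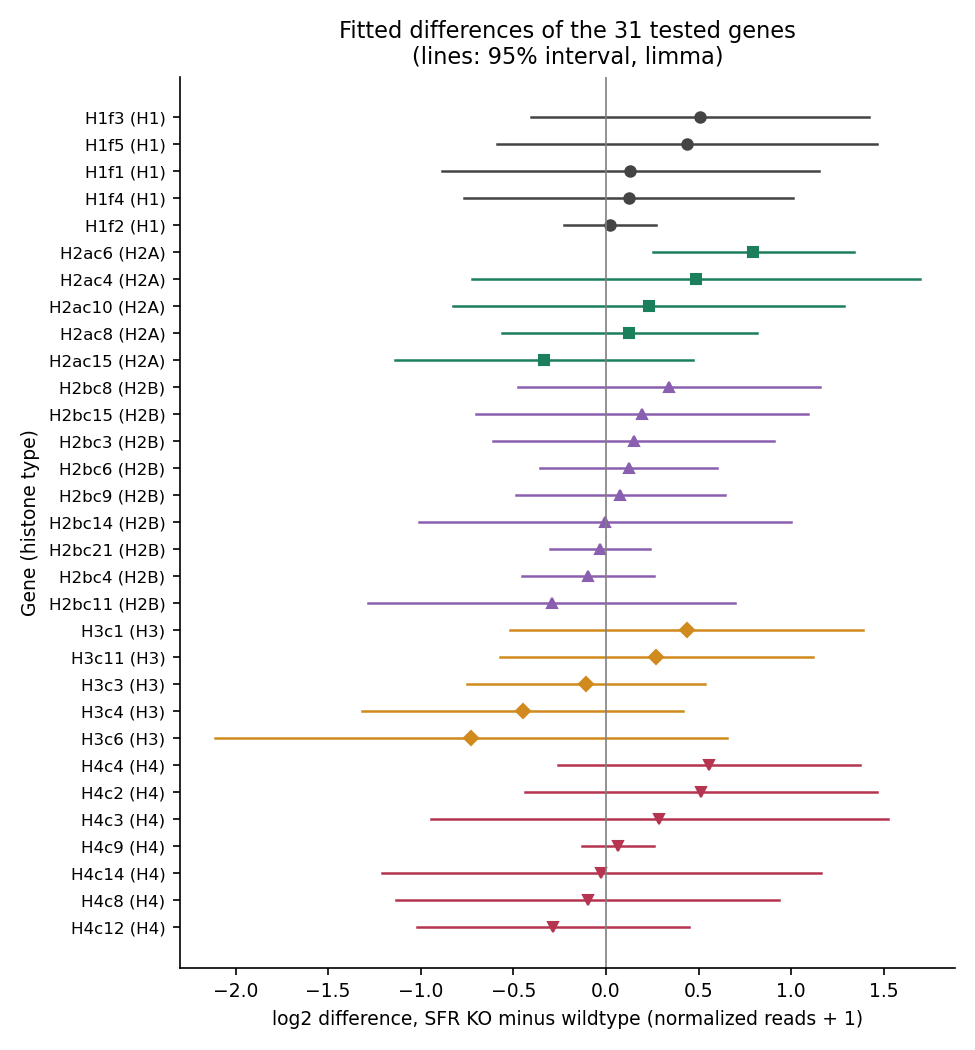
Fitted log2 difference, SFR KO minus wildtype, with its 95% interval (limma) for the 31 tested genes, ordered by histone type. The interval of H2ac6 (0.26 to 1.34) is the only one that does not include 0, and the narrowest intervals are those of H4c9, H1f2 and H2bc21.

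A further 26 genes had reads but a mean under 10 and were not tested. Their groups did not overlap in 2 of the 26 cases, both higher in SFR KO, where 9.78% of all tested genes did so in that direction and 21.7% in either. H3c10 stood at 2.79, 3.08 and 3.05 normalized reads in wildtype and at 7.88, 9.85 and 7.49 in SFR KO libraries, from 34 reads in all. H4c1 stood at 0, 6.15 and 6.09 against 10.8, 7.66 and 7.49, from 38 reads. The testis genes had few or no reads: H2ac1 and H2bc1 had no reads and H1f6, the testis linker histone, had 6 reads, of which 5 were in SFR KO 3.

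Divergent pairs were compared because a pair shares the DNA between its start sites. Among the 63 genes, 12 pairs started head to head within 500 bases of each other, all of an H2A with an H2B gene, at distances of 176 to 306 bases (median 259.5). Levels within a pair could differ greatly, as with H2bc21 at 108 normalized reads per kb and its partner H2ac20 at 13.7. H2ac6 and H2bc4 start 251 bases apart, and their fitted log2 differences were 0.80 ± 0.24 and -0.10 ± 0.16. The difference between these values was not tested.

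The DNA upstream of the start of H2ac6 is shown because it separates a gene whose groups did not overlap from a partner whose groups did, and that of H4c9 because this gene had the highest level. Both are 250 bases before the start in RefSeq on GRCm38.p6, on the minus strand, at chr13:23683960-23684209 and chr13:22041363-22041612, and the capitals mark matches to the TATA, CCAAT and octamer motifs spelled out after them, on either strand.
H2ac6: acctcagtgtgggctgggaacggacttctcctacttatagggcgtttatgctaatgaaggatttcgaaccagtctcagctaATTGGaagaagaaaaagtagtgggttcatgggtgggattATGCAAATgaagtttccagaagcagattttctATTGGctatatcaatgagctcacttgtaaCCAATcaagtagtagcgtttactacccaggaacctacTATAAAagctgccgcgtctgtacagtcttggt
H4c9: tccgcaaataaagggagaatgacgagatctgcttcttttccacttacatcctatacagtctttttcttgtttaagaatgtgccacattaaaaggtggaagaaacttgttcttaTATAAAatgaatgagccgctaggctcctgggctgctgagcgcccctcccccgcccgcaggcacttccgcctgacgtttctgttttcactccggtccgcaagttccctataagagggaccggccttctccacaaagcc

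RefSeq promoters, taken from 250 bases before to 50 after the start, were available for 50 of the 63 genes, and motifs were searched on both strands. CCAAT (or ATTGG) occurred in 44 of the 50 promoters (88%), against 37.9% of the 27025 promoters in the table. It was present in all 5 H1, 14 H2A, 12 H2B and 10 H3 promoters but in 3 of 9 H4 promoters. The octamer ATTTGCAT (or ATGCAAAT), known as a binding motif of Oct factors, occurred in 7 of 12 H2B and 6 of 14 H2A promoters and in no H1, H3 or H4 promoter, against 1.75% of all promoters. TATAAA (or TTTATA) occurred in 60% of the histone promoters and in 14.2% of all promoters. Divergent H2A and H2B partners start 176 to 306 bases apart, so their windows overlap and the same site can count for both genes. The octamers of H2ac1 and H2bc1, of H2ac8 and H2bc8, and of H2ac12 and H2bc12 are shared sites. TTTATA in H2bc7, H2bc12 and H2bc15 is likewise TATAAA of their H2A partners. The H2A and H2B counts are therefore not independent. A match is a string of letters and not a bound site, and a missing match says only that the letters are not in this window.

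The genes that produce, process and handle histones were likewise not called by limma, which called 0.465% of all tested genes. Of 20 genes for histone transcription and 3′ processing, 0 were called by limma. An unadjusted p under 0.05 was found for 1 of the 20, against 16.1% of all tested genes, and their median log2 difference was 0.04. Slbp stood at 8271, 7886 and 8248 normalized reads in wildtype and at 7994, 8893 and 8509 in SFR KO libraries, with overlap (0.06 ± 0.05, limma adjusted p = 0.658). Npat, the activator of histone transcription, was at 0.06 ± 0.07, its partner Casp8ap2 at 0.04 ± 0.07, and the U7 particle proteins Lsm10 and Lsm11 at -0.08 ± 0.09 and -0.01 ± 0.09. Zfp473, which also acts in 3′ processing, was at 0.09 ± 0.15, and Eri1, a nuclease that trims histone messages, at 0.02 ± 0.05. Upf1, the helicase that takes part in their decay, was the gene with p under 0.05, at 5939, 6069 and 6541 against 4699, 5705 and 5304 with no overlap (-0.24 ± 0.07, limma adjusted p = 0.162). DESeq2 called Upf1 lower, where it called 3.56% of all tested genes in either direction. The authors' deposited table gives Upf1 an adjusted p of 0.0401.

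Replication-independent variants and chaperones followed. Of 10 tested variants 0 were called by limma and 2 had an unadjusted p under 0.05, where 16.1% of all tested genes did. Their median log2 difference was 0.10. H2ax was at 0.10 ± 0.06, H3f3a at -0.01 ± 0.05 and H3f3b at 0.10 ± 0.06. Of 23 chaperones 0 were called by limma and 6 had an unadjusted p under 0.05, where 16.1% of all tested genes did, with a median of -0.03. DESeq2 on the recovered reads called 3 of them, Nap1l1 and Anp32e higher and Cabin1 lower, where it called 3.56% of all tested genes. The authors' deposited table gives these 3 genes an adjusted p of 0.000308, 0.0241 and 0.0248, where 497 of 10360 genes lay under 0.05. Nap1l1, a chaperone of H2A and H2B, stood at 31960, 31390 and 30257 normalized reads in wildtype and at 36995, 36500 and 36979 in SFR KO libraries, with no overlap (0.24 ± 0.05, limma adjusted p = 0.0624). The H3 and H4 chaperones Asf1b (0.01 ± 0.06), Chaf1a (-0.11 ± 0.08) and Nasp (0.05 ± 0.05) showed overlapping groups.

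Markers of the cell cycle phases gave the setting of the histone values. Of 20 S phase genes 0 were called by limma and 1 had an unadjusted p under 0.05, where 16.1% of all tested genes did. The median log2 difference of the S phase genes was 0.01. Pcna, the sliding clamp of replication, was at 0.06 ± 0.05, the helicase subunit Mcm5 at -0.01 ± 0.06 and Rrm2, which makes deoxynucleotides, at 0.00 ± 0.05. Of 14 genes of G2 and mitosis 0 were called and 3 had an unadjusted p under 0.05, where 16.1% of all tested genes did. Their median log2 difference was 0.03. Ccnb1, cyclin B1, did not overlap between groups (0.19 ± 0.06, limma adjusted p = 0.157), whereas Mki67 (-0.24 ± 0.15) and Top2a (0.06 ± 0.08) did. Of the small RNAs only Rn7sk was tested, at 66.0, 64.6 and 89.4 normalized reads in wildtype, against 107, 61.3 and 85.2 in SFR KO libraries.

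The linker histone genes that are not replication-dependent had many more reads. H1f0, the linker histone of differentiated cells, stood at 1368, 1520.1 and 1610 normalized reads in wildtype and at 1555, 1787 and 1705 in SFR KO libraries, with overlap (0.17 ± 0.08, limma adjusted p = 0.346). H1f10 stood at 4397, 4701 and 6552 against 4453, 7013 and 7848, also with overlap (0.29 ± 0.21, limma adjusted p = 0.543). Summed with the 63 genes, they moved the ratio of SFR KO to wildtype from 1.05 to 1.17. H1f7 and H1f8 had no reads.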

How the data were processed

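RNA-seq of 3 wildtype and 3 SFR KO samples was used, grouped by the labelled genotype, with replicates numbered in accession order. The tools named are STAR 2.5, featureCounts 1.5 and DESeq2 1.14.1 on build GRCm38, per the submitters' processing notes. The sources used here do not give the annotation release, strand setting, handling of reads that map to several places or library selection. The authors deposited, per gene, counts normalized to library size, used here as a signal called normalized reads. Each gene's deposited row also holds a log2 fold change with its standard error, a test statistic (a score) and raw and adjusted p-values. Whole reads were recovered from the steps of the normalized values (100% of values within 1e-06), and libraries held 28269310 to 33053024 reads.

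Genes were taken from the table by biotype and name (Hist1h to Hist4h, and H1f, H2ac, H2bc, H3c and H4c followed by a number). Exon lengths, 3′ UTRs and overlaps came from GENCODE M21, which matched 99.5% of IDs and all 68 histone genes, and levels per kb use the union of a gene's annotated exons. The test was limma 3.58.1 (R 4.3.3; lmFit, eBayes with a trend), two-sided, on log2(normalized reads + 1) with genotype as the factor, for the 13562 genes with a mean of at least 10. A gene was called when its Benjamini-Hochberg adjusted p was under 0.05. Differences are on that log2 scale. For low genes they can be smaller or larger than those of edgeR, as for H3c4 (-0.45 against -0.51) and H3c6 (-0.73 against -0.38). Scripts were tested on simulated data.

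The histone genes, companion lists and naming rule were chosen with earlier results of these data known. Named were any called histone gene, the 4 with the highest mean of each type, among those with a mean of at least 50 the 2 largest differences each way, the lowest p of each type, the testis genes, and fixed members of the companion lists. H3c10, H4c1, H4c14, H2ac20, Upf1, Nap1l1, Anp32e, Cabin1 and the genes listed with sequences or as absent were named after their values were seen. The alternatives comprised pseudocounts of 0.5 and 5, no filter and a minimum mean of 50, TMM and total-read scaling, edgeR 4.0.16 and DESeq2 1.42.0 on recovered reads, a correction of every library for GC content, and the leaving out of single libraries. After seeing the data, sums without the 4 highest genes and with the 5 other linker genes were added. The sum over the 19 genes annotated at least 100 bases beyond the stem-loop and the ratios by 3′ UTR length were not planned in advance either.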

Additional observations from a re-analysis of the deposited data

How the results depend on the processing

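Under the 15 alternative settings, 0 of 443 values of single histone genes, here with H1f0 and H1f10 included, passed the threshold. The lowest limma, edgeR or DESeq2 adjusted p among these values was 0.0720. The median log2 difference of the tested replication-dependent histone genes stayed between 0.02 and 0.24. The ratio of summed reads was 1.03 to 1.08 with single libraries left out, 1.12 without the 4 highest genes and 1.17 with H1f0, H1f6, H1f7, H1f8 and H1f10. By type, the median was -0.03 for H2B at a minimum mean of 50 normalized reads, 0.27 for H3 with no filter on low values and 0.30 for H4 without SFR KO replicate 1; medians of H2B and H3 changed sign among the left-out libraries. DESeq2 called 1 gene of histone transcription and processing lower (Upf1) and, of the chaperones, 2 higher (Nap1l1 and Anp32e) and 1 lower (Cabin1), where limma called 0; limma without SFR KO replicate 1 called 1 chaperone higher. The causes were not tested. Over all genes limma called 63, edgeR 30 and DESeq2 483. Depth limits the family: the 95% interval of the median tested gene was 1.73 log2 units wide, and 32 genes share over 50% of their 50-base stretches with another gene. No paired analysis was possible because the labels give no replicate numbers shared between the groups.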

Other observations

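A few histone genes fall outside the naming pattern but carry the stem-loop within 100 bases of the stop codon. H2aw stood at 71.5, 93.3 and 72.1 normalized reads in wildtype and at 100.5, 108 and 75.9 in SFR KO libraries, with overlap. H2bu2 stood at 94.8, 85.1 and 97.5 against 99.5, 104 and 105, and its groups did not overlap. Their log2 differences were 0.26 ± 0.21 and 0.15 ± 0.16, and neither was called by limma. H4f16, a further gene of this kind, had means of 5.67 and 3.97 normalized reads and was not tested. H2ax carries the pattern too (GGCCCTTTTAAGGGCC, with 822 annotated bases beyond it) and had a mean of 22231 normalized reads, beside 578 for H4c9. The 3 genes outside the histone family with the pattern in this window were Bap1, Eif2ak4 and Nemp1.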
